A study of Mus musculus with 6 samples.

Results

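Periostin and 9 other matricellular or matrix-associated genes were followed in mouse cells put through a model of ischaemia and reperfusion, oxygen-glucose deprivation and reoxygenation (OGD/R), with or without the plant lignan phillyrin. The 10 genes were Postn, Tgfbi, Tnc, Spp1, Thbs1, Thbs2, Sparc, Fn1, Hmcn2 and Mamdc2, of 21959 genes in the deposited table. They were chosen by name, with fold changes from this same comparison already known, so their differences between the groups are given as a description without p-values. The treated group had 3 libraries of cells that received OGD/R with 50 µg/mL phillyrin, given for 8 h beforehand and 16 h alongside, and the other group had 3 libraries of cells that received OGD/R alone. In both, hypoxia without glucose lasted 4 h and reoxygenation in complete medium 24 h, per the labels. All 6 libraries carry the labels HL-1, wild type and a single batch. HL-1 is a line from an atrial tumour lineage of a transgenic mouse, and it was grown here in Claycomb medium with norepinephrine. These 6 libraries are the whole series, so it holds no separate solvent-only group and no cells without OGD/R.

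Matricellular proteins are secreted into the extracellular matrix, where they act less as structural fibres than as modulators of how cells bind the matrix, growth factors and proteases. Most bind integrins, and several are made strongly in wounds and in injured myocardium, mainly by activated fibroblasts. Periostin binds collagen, fibronectin and tenascin-C and helps assemble them, and it is a widely used marker of activated cardiac fibroblasts. Fibronectin itself is a structural adhesive glycoprotein on which the others are deposited.

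With phillyrin, Postn, Mamdc2, Hmcn2, Tnc, Fn1 and Thbs2 were higher, Spp1 and Thbs1 were lower, and Sparc differed little. The largest ratios belonged to scarce transcripts, with Postn at about 1 FPKM, whereas the largest differences in amount belonged to Fn1 and Spp1. By edgeR's quasi-likelihood test at an adjusted p under 0.05, 6 of the 9 genes with enough counts were called higher, where 16.0% of the 11658 genes tested were, and 2 were called lower, where 15.6% were. After the scaling used for that test, the groups did not overlap for 8 of the 9, and for 43.1% of all genes tested. These shares are background only, since the 10 genes were picked with this comparison in view. Scaled by library size only, 1313 genes of the whole table were higher and 2455 lower, against 1871 and 1823 with TMM scaling (normalisation on the bulk of genes), and each of the 9 genes kept its direction.

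Library totals lay between 14761317 and 22123648 counts, and the 9 genes had at least 55 counts in every library. CPM below is counts scaled to 1e6 of the TMM-scaled library size, and FPKM is the authors' value per kilobase of gene length and per 1e6 counts. The labels do not state whether replicates were grown apart, so any p-value reflects only the library-to-library spread, perhaps technical. Several transcripts that define the labelled cell type were missing. Of 8 cardiomyocyte markers, 7 stayed below 1 CPM in every library, Myh6 and Actn2 had no counts, and Tnnt2 averaged 153 ± 9.34 CPM with phillyrin and 116 ± 1.79 CPM without (SD, n = 3 each).

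Some markers of matrix-producing cells and of skeletal myoblasts were present, and some of these differed between the groups. The 9 fibroblast markers summed to 1796 to 1950 CPM in the phillyrin libraries and 2280.0 to 2321 CPM in the OGD/R libraries, with Lum and Tcf21 at 0 counts in all 6 and 4 of the 9 below 1 CPM throughout. Of the 5 fibroblast markers tested, Col1a2 (log2 fold change -0.27), Col3a1 (-0.34) and Pdgfra (-0.74) were lower. Dcn and Col1a1 did not pass. The 6 smooth muscle and pericyte markers summed to 632 to 677 CPM with phillyrin and 466 to 490 CPM without, nearly all from Acta2 and Pdgfrb. Of these only Acta2 passed, at 579 ± 29.5 CPM with phillyrin and 391.9 ± 12.4 CPM in OGD/R (SD, n = 3 each), while Pdgfrb stood at 81.3 ± 5.96 CPM with phillyrin and 84.2 ± 1.23 CPM in OGD/R, and Myh11, Tagln, Cnn1 and Rgs5 stayed below 1 CPM. The 7 skeletal myoblast markers summed to 1087 to 1138 CPM with phillyrin and 1119 to 1138 CPM without. Des was the largest part (694 ± 19.8 CPM with phillyrin, 675 ± 8.17 CPM in OGD/R), and Myog and Tnnc2 stayed below 1 CPM throughout. Of the 5 myoblast markers tested, Myod1, a regulator of skeletal muscle identity, was higher (97.2 ± 4.09 CPM with phillyrin, 83.1 ± 2.18 CPM in OGD/R). Myf5, another such regulator (52.5 ± 2.76 CPM with phillyrin, 64.2 ± 3.65 CPM in OGD/R), and Chrna1, a muscle acetylcholine receptor subunit (271 ± 11.04 CPM with phillyrin, 304 ± 5.39 CPM in OGD/R), were lower, and Des and Pax7 did not pass. Endothelial markers summed to at most 1.35 CPM and macrophage markers to at most 4.27 CPM in any library. The part of these markers in the results below was not tested. In bulk RNA, fewer cells of a type and less RNA per cell cannot be told apart.

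Promoters of 3 of the genes are printed because these genes stand for the response: Postn had the largest ratio, Tnc was the abundant gene with the largest increase in ratio, and Spp1 had the largest decrease. Each run holds 250 bases before the annotated start and 50 from it on, from RefSeq on build GRCm38.p6, in the direction of transcription, with TATAAA in capitals. The entries lie at chr3:54360857-54361156 on the plus strand for Postn, chr4:64046966-64047265 on the minus strand for Tnc and chr5:104434861-104435160 on the plus strand for Spp1.
Postn: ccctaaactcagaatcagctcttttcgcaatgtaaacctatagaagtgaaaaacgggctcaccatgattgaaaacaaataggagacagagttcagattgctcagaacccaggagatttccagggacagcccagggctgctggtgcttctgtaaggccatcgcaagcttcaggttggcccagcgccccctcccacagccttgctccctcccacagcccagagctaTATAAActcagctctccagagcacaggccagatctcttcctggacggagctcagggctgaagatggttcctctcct
Tnc: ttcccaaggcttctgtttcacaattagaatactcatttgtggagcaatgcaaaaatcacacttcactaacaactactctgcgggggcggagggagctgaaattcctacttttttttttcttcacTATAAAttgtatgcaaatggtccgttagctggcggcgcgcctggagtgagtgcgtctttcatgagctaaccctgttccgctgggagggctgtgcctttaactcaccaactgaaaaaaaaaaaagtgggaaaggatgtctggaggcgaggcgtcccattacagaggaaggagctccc
Spp1: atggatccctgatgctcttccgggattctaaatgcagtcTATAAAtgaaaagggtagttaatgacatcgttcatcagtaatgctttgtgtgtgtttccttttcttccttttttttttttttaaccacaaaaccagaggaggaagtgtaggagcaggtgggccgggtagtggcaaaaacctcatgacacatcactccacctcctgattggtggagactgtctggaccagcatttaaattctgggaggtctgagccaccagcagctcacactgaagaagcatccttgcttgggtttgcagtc

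A promoter entry was found for 7 of the 10 genes, Postn, Tgfbi, Tnc, Spp1, Thbs2, Sparc and Hmcn2. The start of the Sparc entry lies 3103 bases from the gene start annotated by GENCODE, against at most 83 bases for the others. Its matches, counted below for SMAD and E-box letters, may therefore not lie at the main start of the gene. The TATA box letters TATAAA, searched on both strands, begin at position -26 from the start in Postn, -126 in Tnc and -211 in Spp1. They occur in 4 of the 7 promoters and in 13.6% of 32544 distinct mouse promoters of the same length. The AP-1 letters TGANTCA occur in 1 of the 7, Hmcn2, and in 7.79% of all. The antioxidant response element letters TGACNNNGC occur in 0 of the 7 and in 12.4% of all. The SMAD letters CAGAC occur in 5 of the 7 and in 49.5% of all, and the E-box letters CANNTG in 5 of the 7 and in 72.3% of all. These letters do not overlap TATAAA in the 3 printed runs, and a match is not a bound site.

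Levels per length spanned more than 3 orders of magnitude, from Spp1 to Hmcn2, and the order was almost the same in both groups. From high to low by FPKM it ran Spp1, Fn1, Sparc, Thbs2, then Tnc and Thbs1, then Mamdc2, Postn, Hmcn2 and Tgfbi. Spp1 averaged 936 ± 87.3 FPKM with phillyrin and 1500.3 ± 4.03 FPKM without (SD, n = 3 each), rank 18 and rank 7 among all genes of the table. Fn1 averaged 419 ± 13.0 FPKM with phillyrin and 345 ± 7.81 FPKM without, rank 40 and rank 58. Neighbours in the order did not overlap in either group. Tnc and Thbs1 traded places: Tnc stood at 68.6, 68.7 and 68.7 FPKM and Thbs1 at 57.9, 60.5 and 60.1 FPKM with phillyrin, against Tnc at 51.7, 48.1 and 50.5 FPKM and Thbs1 at 82.8, 80.3 and 79.9 FPKM in OGD/R. FPKM uses one length per gene, so splice forms of Fn1 and Tnc are not separated.

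**Figure D1:**
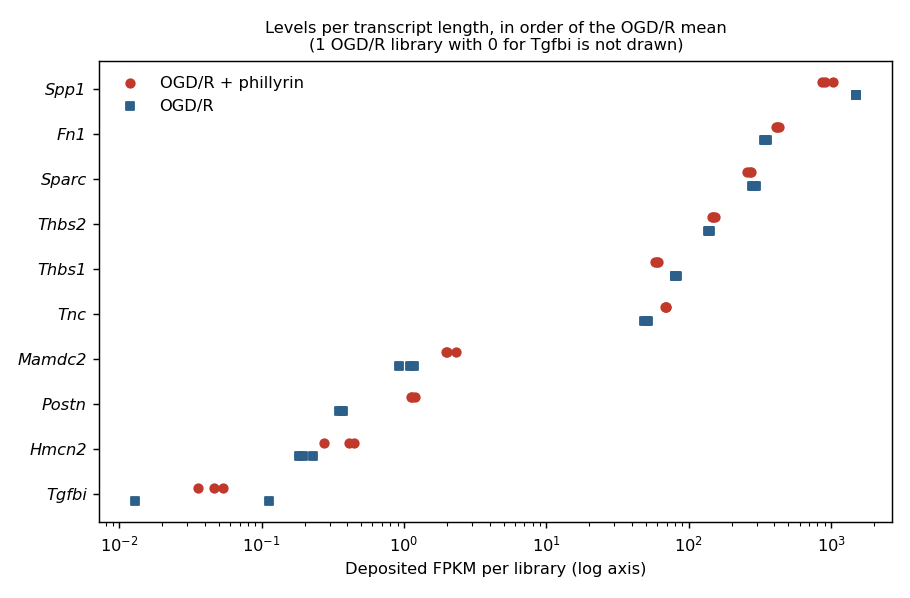
Deposited FPKM of each gene in every library on a log axis, circles for OGD/R with phillyrin and squares for OGD/R alone, genes in the order of their OGD/R mean. Spp1 and Fn1 lead in both groups, Tnc and Thbs1 cross, and Postn, Mamdc2 and Hmcn2 lie at or below about 2 FPKM.

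Together the 10 genes took 0.979%, 0.933% and 0.913% of all counts in the phillyrin libraries and 0.962%, 0.935% and 0.939% in the OGD/R libraries, ranges that overlap. Their makeup differed between the groups. Fn1 supplied 51.7%, 52.0% and 52.3% of the genes' counts with phillyrin, against 43.0%, 42.3% and 42.7% in OGD/R. The ratio of Spp1 to Fn1 in FPKM was 2.39, 2.18 and 2.13 with phillyrin, against 4.24, 4.43 and 4.39 in OGD/R. Summed over the 10 genes, FPKM averaged 1904 with phillyrin and 2403 in OGD/R, and Spp1 was the largest part of that sum in both groups.

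Postn (ENSMUSG00000027750, chromosome 3, 54268530 to 54298458, GRCm39), periostin, carries FAS1 domains and binds integrins of the alpha-v class. Its counts were 170, 215 and 154 with phillyrin, against 59, 65 and 57 in OGD/R. On the CPM scale these were 9.94, 9.82 and 10.7, against 3.19, 3.13 and 2.998. All 3 phillyrin libraries were more than 3-fold above the OGD/R mean, and the spread within a group was 4.75% of the mean with phillyrin and 3.16% in OGD/R. At counts this low, counting error alone would give more spread than that, so these percentages overstate the precision. The log2 fold change was 1.70 (SE 0.15), the 10th largest in size among the 11658 genes tested and the fourth largest increase. It lay between 1.67 and 1.73 when any library was left out.

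Tgfbi (chromosome 13, 56757336 to 56787375), the other FAS1-domain protein among the 10 and an adhesion protein named for its induction by TGF-beta, was barely detected. It had 3, 3 and 3 counts with phillyrin and 0, 1 and 8 in OGD/R, 9 in each group, and 1 OGD/R library supplied nearly all of its group's. Pooled, this was 0.169 CPM with phillyrin (95% exact Poisson interval 0.0771 to 0.320) and 0.155 CPM in OGD/R (0.0707 to 0.293). Such intervals cover counting error only. Tgfbi did not pass the low-count filter, and no difference was detectable at this depth.

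Mamdc2 (chromosome 19, 23279973 to 23425806), which encodes a secreted protein with MAM domains, had 6.84, 8.04 and 7.16 CPM with phillyrin and 3.13, 3.76 and 4.00 CPM in OGD/R. The lowest phillyrin library was above the highest OGD/R library by a wide margin, and the log2 fold change was 1.02 (SE 0.16). Hmcn2 (chromosome 2, 31204427 to 31350750), hemicentin 2, a very large matrix protein with immunoglobulin repeats, had 6.61, 7.22 and 4.52 CPM with phillyrin and 3.62, 3.09 and 2.89 CPM in OGD/R. Phillyrin replicate 3 was the low one, and the spread was 23.1% of the mean with phillyrin, the widest of the 9 genes in that group, and 11.8% in OGD/R, where Mamdc2 varied most (12.3%). The log2 fold change of Hmcn2 was 0.96 (SE 0.19) and ranged from 0.82 to 1.12 over the omission of each library. With all libraries in, its groups did not overlap.

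**Figure D2:**
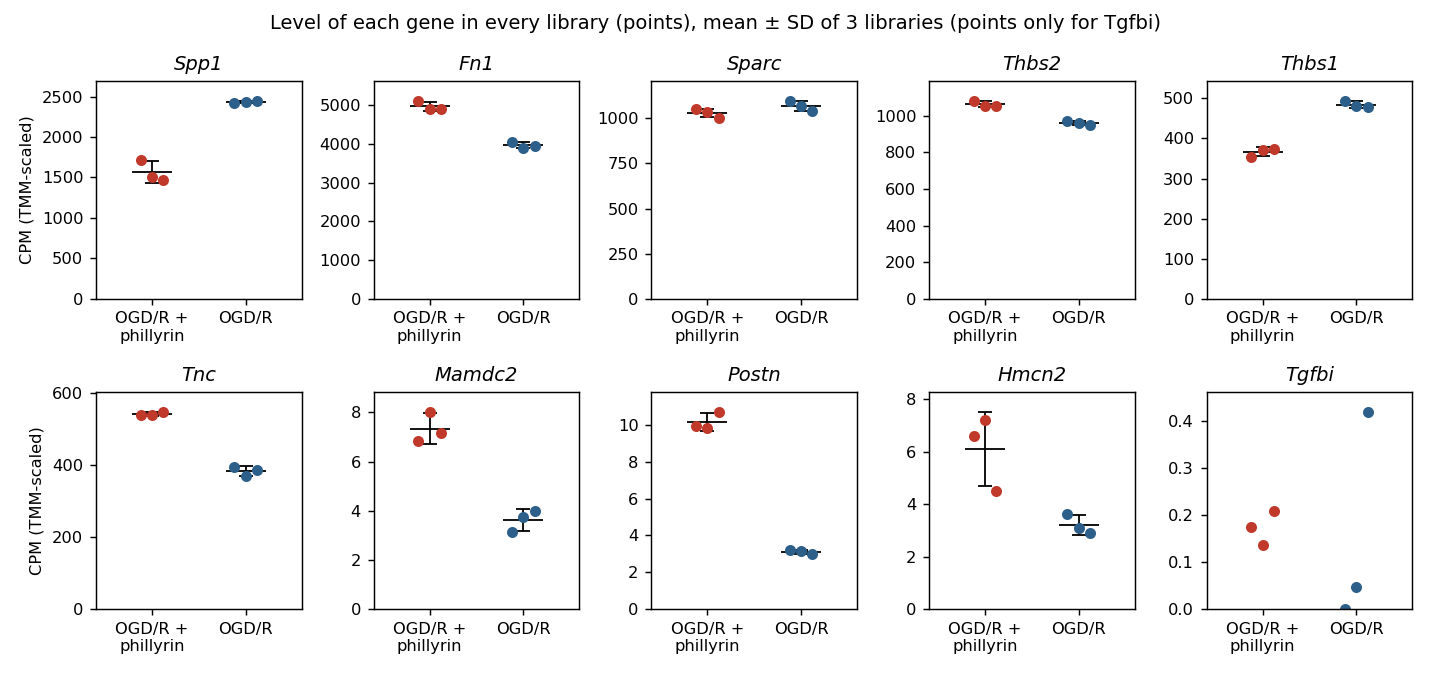
CPM of each gene in every library (points), with the mean and SD of 3 libraries as bars except for Tgfbi, whose counts were too few, and each axis starting at 0. Phillyrin libraries lie above all OGD/R libraries for Postn, Mamdc2, Hmcn2, Tnc, Fn1 and Thbs2 and below all of them for Spp1 and Thbs1.

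Tnc (chromosome 4, 63878022 to 63965252), tenascin-C, a branched glycoprotein that periostin links to fibronectin, had 538, 539.7 and 548 CPM with phillyrin and 394, 369 and 387 CPM in OGD/R. The phillyrin values were nearly identical to each other and all above OGD/R, with a log2 fold change of 0.50 (SE 0.03). Fn1 (chromosome 1, 71624679 to 71692359), fibronectin, had 5114, 4901 and 4901 CPM with phillyrin and 4059, 3895 and 3954 CPM in OGD/R. This is a ratio of only 1.252 (log2 fold change 0.32, SE 0.03) but, at 1002 CPM, the largest rise in amount among the 10 genes.

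Spp1 (chromosome 5, 104582984 to 104588916), osteopontin, a secreted phosphoprotein that binds integrins and CD44, had 1721, 1505 and 1471 CPM with phillyrin and 2425, 2433 and 2447 CPM in OGD/R. Each phillyrin library was lower than each OGD/R library. Phillyrin replicate 1 was the highest of its group, and the spread was 8.67% of the mean with phillyrin, against 0.461% in OGD/R. The log2 fold change was -0.64 (SE 0.04), and the mean dropped by 869.5 CPM. It ranked 318 from the bottom among the 11658 genes tested.

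The thrombospondins, trimeric glycoproteins that bind calcium, CD47 and growth factors, went opposite ways. Thbs1 (chromosome 2, 117942357 to 117957614), which can activate latent TGF-beta, had 355, 371 and 375 CPM with phillyrin and 494, 480.3 and 479 CPM in OGD/R, a log2 fold change of -0.40 (SE 0.03). Thbs2 (chromosome 17, 14885762 to 14914497) had 1081, 1051 and 1055 CPM with phillyrin and 970.2, 959 and 948 CPM in OGD/R, a log2 fold change of 0.15 (SE 0.03). The ratio of Thbs2 to Thbs1 in FPKM was therefore 2.64, 2.46 and 2.44 with phillyrin, against 1.70, 1.73 and 1.72 in OGD/R, without overlap.

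Sparc (chromosome 11, 55285326 to 55314009), also called osteonectin, a calcium-binding protein that attaches to collagen, had 1051, 1036.5 and 1004 CPM with phillyrin and 1097, 1067 and 1039 CPM in OGD/R. In CPM the groups overlapped, and the log2 fold change was -0.05 (SE 0.03). In deposited FPKM, without TMM scaling, they did not overlap, at 258.3 to 274.9 with phillyrin and 278 to 294.8 in OGD/R. Sparc was not called, except with library-size scaling alone, where its log2 fold change was -0.09 (-0.095).

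**Figure D3:**
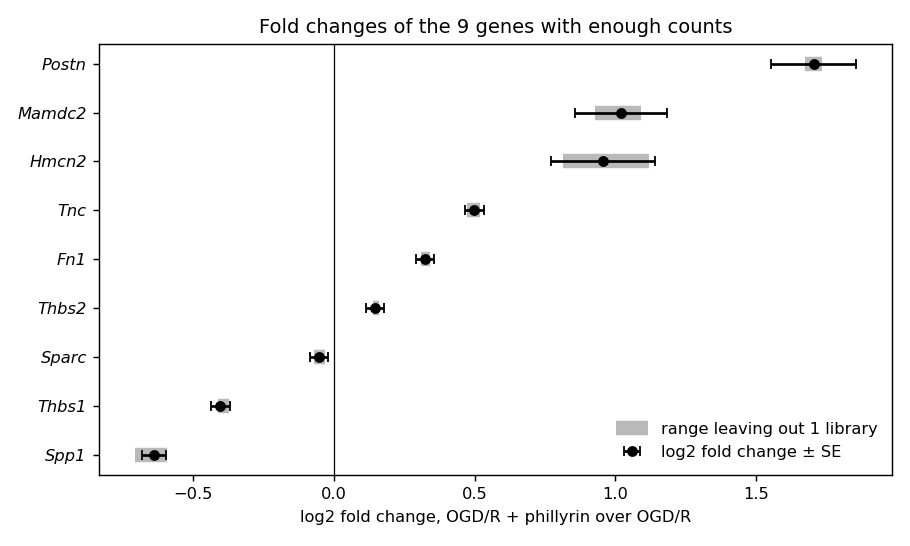
Log2 fold change of OGD/R with phillyrin over OGD/R for the 9 genes with enough counts, as points with SE, and as grey bars the range when each library was left out in turn. Postn stands at 1.70 and Spp1 at -0.64, and no grey bar crosses 0.

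**Figure D4:**
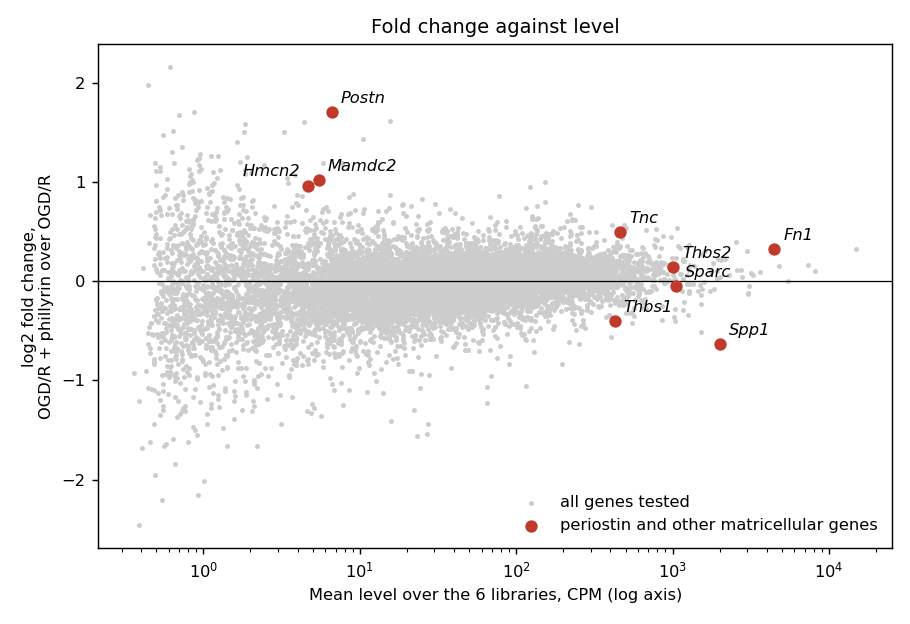
Log2 fold change against mean CPM over the 6 libraries (log axis) for the 11658 genes tested, with the 9 matricellular genes in red. Postn, Mamdc2 and Hmcn2 sit among scarce transcripts, and Tnc, Fn1, Thbs2, Sparc, Thbs1 and Spp1 among abundant ones.

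Only some of the nearest relatives of the 10 genes had enough counts to test. Of 43 genes in 8 lists of family relatives, 36 had any count and 21 were tested, of which 9 rose, 1 fell and 11 did not pass. Over all 11658 genes tested, 16.0% rose and 15.6% fell, and each count of a list stands beside these shares. The lists were drawn up with earlier results of these data known, so these shares are background only. The median log2 fold change of the 21 was 0.02, against -0.01 over all genes tested. The genes of the lists described below that lie outside the 2 named by rule per list were picked once their values had been seen. The p-values that follow are edgeR p-values adjusted over all 11658 genes.

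CCN proteins bind integrins and heparan sulphate, and 3 of the 4 tested rose. Ccn2, the connective tissue growth factor, reached 145 ± 6.73 CPM with phillyrin, against 86.7 ± 2.99 CPM in OGD/R (SD, n = 3 each), with an edgeR adjusted p of 1.74e-15 and a log2 fold change of 0.74 (SE 0.05). Ccn4 averaged 342 ± 7.41 CPM with phillyrin and 298 ± 6.06 CPM in OGD/R (edgeR adjusted p = 2.49e-05). Ccn5 was scarce at 2.55 ± 0.214 CPM with phillyrin and 1.53 ± 0.449 CPM in OGD/R (SD, n = 3 each; edgeR adjusted p = 0.0287). Its call was lost with DESeq2 (adjusted p = 0.0563), in thinned libraries (0.0578), and on omission of phillyrin replicate 2 (0.106) or either of OGD/R replicates 1 (0.11) and 2 (0.133). The other tested gene, Ccn1, did not pass (log2 fold change -0.06, SE 0.04), but was called lower when scaled by library size only.

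Among the SPARC relatives 2 of 7 were tested, and Fstl1, a secreted follistatin-like glycoprotein, rose to 717 ± 5.55 CPM with phillyrin, against 568 ± 4.68 CPM in OGD/R (SD, n = 3 each; log2 fold change 0.33, edgeR adjusted p = 1.54e-10). Of the fibulins and hemicentin 1, relatives of Hmcn2, 6 of 7 were tested. Fbln2 (log2 fold change 0.44, SE 0.04, edgeR adjusted p = 9.12e-12) and Fbln5 (0.46, SE 0.09, edgeR adjusted p = 0.000147) rose. Fbln1 fell (log2 fold change -0.23, edgeR adjusted p = 0.00631), a call lost without phillyrin replicate 1 (adjusted p = 0.0917). Hmcn1 averaged 2.82 ± 0.688 CPM with phillyrin and 3.09 ± 1.11 CPM in OGD/R (SD, n = 3 each) and did not pass (log2 fold change -0.12, SE 0.24).

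Of 11 other MAM-domain genes 6 were tested and 3 rose, among them the receptor phosphatases Ptprk (log2 fold change 0.40, SE 0.04, edgeR adjusted p = 6.83e-10) and Ptprm (0.32, SE 0.06, edgeR adjusted p = 0.000144). Other family branches gave little signal to test. Of the other tenascins only Tnxb was tested, of the other thrombospondins only Thbs3 and of the stabilins, which also carry FAS1 domains, only Stab2, and none of the 3 passed (edgeR adjusted p = 0.259 for Tnxb, 0.571 for Thbs3 and 0.868 for Stab2). The bone proteins related to Spp1 had no tested member, with Ibsp, Mepe and Dspp at 0 counts in all 6 libraries. Of 10 small leucine-rich proteoglycans 4 were tested: Bgn, biglycan, rose (log2 fold change 0.33, edgeR adjusted p = 1.15e-06) and Ogn, osteoglycin, fell (-0.73, edgeR adjusted p = 8.39e-05).

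Of 14 receptors of these proteins tested, 3 were higher and 3 lower, near the shares of 16.0% and 15.6% over all genes, and the median was -0.00 on the log2 scale. The integrin beta subunit Itgb1 rose to 1387 ± 3.43 CPM with phillyrin, against 1092 ± 5.78 CPM in OGD/R (SD, n = 3 each; log2 fold change 0.34, edgeR adjusted p = 3.77e-11). Lrp1, an endocytic receptor that clears thrombospondins, fell to 888 ± 25.6 CPM with phillyrin, against 1169.8 ± 30.3 CPM in OGD/R (log2 fold change -0.40, edgeR adjusted p = 4.34e-12). The alpha-v integrin gene Itgav stood at 333 ± 12.4 CPM with phillyrin and 334 ± 14.0 CPM in OGD/R, and Cd44 at 938 ± 21.7 CPM with phillyrin and 937 ± 12.9 CPM in OGD/R (SD, n = 3 each). Neither passed (log2 fold changes -0.00 with SE 0.04 and 0.00 with SE 0.03). The 3 higher also held the integrin genes Itgb5 (log2 fold change 0.47, edgeR adjusted p = 7.1e-10) and Itga5 (0.24, edgeR adjusted p = 3.445e-06). The 3 lower also held Sdc4 (-0.23, edgeR adjusted p = 5.68e-06) and Itga4 (-0.58, edgeR adjusted p = 0.0379). The call of Itga4 was lost with DESeq2 (adjusted p = 0.0765) and on some omissions of a library (0.0502 to 0.196). Cd36, a receptor of the thrombospondins, had 0 counts in all 6 libraries.

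Among matrix partners and crosslinking enzymes 4 of 16 rose and 8 fell, with a median of -0.09. Pcolce, the enhancer of procollagen processing, fell to 140.2 ± 3.75 CPM with phillyrin, against 251 ± 8.23 CPM in OGD/R (SD, n = 3 each; log2 fold change -0.84, edgeR adjusted p = 9.75e-19). Lox, which crosslinks collagen, rose to 937 ± 21.0 CPM with phillyrin, against 743 ± 10.1 CPM in OGD/R (log2 fold change 0.33, edgeR adjusted p = 2.06e-10). Its relatives Loxl2 (log2 fold change -0.28, edgeR adjusted p = 0.000175), Loxl3 (-0.34, edgeR adjusted p = 1.01e-05) and Loxl4 (-0.78, edgeR adjusted p = 1.05e-07) fell. Loxl1 did not pass (log2 fold change 0.14, SE 0.06), but was called higher without phillyrin replicate 1 (edgeR adjusted p = 0.0232). Bmp1, the procollagen proteinase that periostin helps to place on fibronectin, was 1 of the 8, at a log2 fold change of -0.13 (edgeR adjusted p = 0.0193). That call was lost with DESeq2 (adjusted p = 0.055) and on omission of phillyrin replicate 2 (0.113) or either of OGD/R replicates 1 (0.203) and 2 (0.0664).

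Of the proteases and inhibitors that act on matrix 9 of 14 were tested, of which 2 rose and 2 fell. The inhibitor Timp3 rose to 922 ± 18.9 CPM with phillyrin, against 640.0 ± 9.81 CPM in OGD/R (SD, n = 3 each; log2 fold change 0.53, edgeR adjusted p = 1.62e-15), and Timp2 fell (-0.27, edgeR adjusted p = 8.66e-08). The protease Mmp14 was the other increase (log2 fold change 0.24, edgeR adjusted p = 7.01e-06). Adamts1, a protease that cuts proteoglycans, was the other decrease (log2 fold change -0.18, edgeR adjusted p = 0.0382). Its call was lost with DESeq2 (adjusted p = 0.0808), in thinned libraries (0.0653) and on omission of any library other than phillyrin replicate 1 (0.0501 to 0.19). All 16 genes of TGF-beta signalling on the list were tested, and 4 rose and 5 fell, with a median of 0.01. Ltbp3, a latent TGF-beta binding protein, fell (log2 fold change -0.47, SE 0.04, edgeR adjusted p = 3.68e-11) and the SMAD corepressor Skil rose (0.28, SE 0.04, edgeR adjusted p = 2.43e-07). The ligands Tgfb1, Tgfb2 and Tgfb3 did not pass, with log2 fold changes of -0.13 (SE 0.06) for Tgfb1, 0.04 (SE 0.08) for Tgfb2 and -0.06 (SE 0.07) for Tgfb3. Tgfb1 was called lower with library size only (edgeR adjusted p = 0.0213) and without phillyrin replicate 2 (0.0273).

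**Figure D5:**
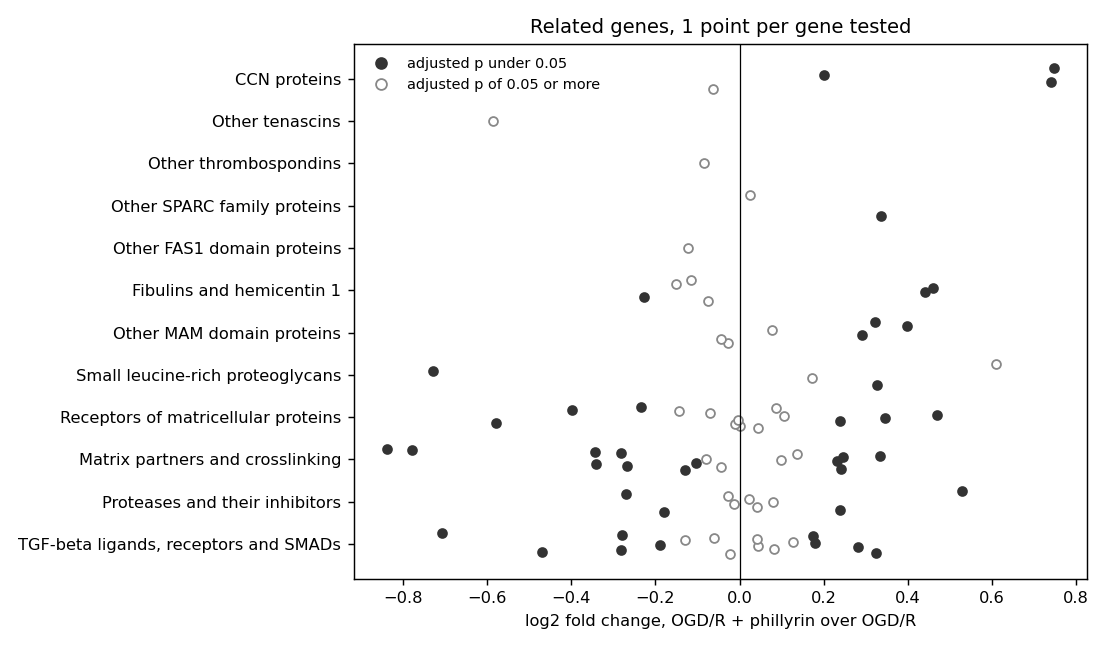
Log2 fold change of OGD/R with phillyrin over OGD/R for each related gene tested, by list, filled where the edgeR adjusted p was under 0.05. CCN and MAM-domain genes that passed lie right of 0, and matrix partners, receptors and TGF-beta genes lie on both sides.

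The table's own annotation gave a wider view, with terms picked after the values were seen and the 10 genes left out of the counts. Without those 10, 16.0% of all genes tested rose and 15.6% fell. Of 154 tested genes annotated to the collagen-containing extracellular matrix, to which 7 of the 10 belong, 27 rose (17.5%) and 41 fell (26.6%), and the median was -0.05 on the log2 scale. Among 69 tested heparin-binding genes, a term held by Postn, Thbs1, Thbs2 and Fn1, 17 rose (24.6%) and 12 fell (17.4%), and the median was -0.00. Among 87 integrin-binding genes, a term held by Tgfbi, Spp1, Thbs1 and Fn1, 17 rose (19.5%) and 20 fell (23.0%), and the median was again -0.00. Also counted were extracellular matrix (15.4% rose, 26.5% fell) and ECM-receptor interaction (14.6% rose, 25% fell). Cell adhesion (20.3% rose, 22.8% fell) and calcium ion binding (18.2% rose, 23.5% fell) completed the terms. Of all the terms, only heparin binding had more genes higher than lower.

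The genes whose profile over the 6 libraries lay nearest to Postn were Car6, Mcam, Hdac9, Fibcd1 and Nat14, of 10565 compared. Likeness was the root mean square difference of centred log2 CPM, and it ran from 0.12 for Car6 to 0.31 for Nat14. Mcam, an adhesion molecule of the immunoglobulin superfamily, averaged 6.60 ± 0.368 CPM with phillyrin and 2.16 ± 0.420 CPM in OGD/R (SD, n = 3 each). Their log2 fold changes, which this choice itself draws toward that of Postn, ran from 1.17 for Nat14 to 1.62 for Car6.

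Genes on either side of the 10 along their chromosomes were compared with them. None of the 10 overlapped another gene of the table. Of 20 nearest tested neighbours 7 rose, 2 fell and 11 did not pass, where 16.0% of all genes tested rose and 15.6% fell. Those of Postn were Ufm1, 497279 bases away with a log2 fold change of 0.15 (edgeR adjusted p = 0.0119), and Supt20, 301770 bases away with 0.03 (SE 0.05). Hmcn2 lay 9469 bases from Ass1, which rose to 38.5 ± 1.78 CPM with phillyrin, against 22.4 ± 1.53 CPM in OGD/R (SD, n = 3 each; log2 fold change 0.78, edgeR adjusted p = 1.54e-10). Its other neighbour Ncs1 rose less (log2 fold change 0.17). Sparc had Fat2 on one side, which fell (log2 fold change -1.09, SE 0.15, edgeR adjusted p = 4.50e-07), and Atox1 on the other, which fell too (-0.32, SE 0.08). Atic and Mreg beside Fn1, and Smc5 and Ptar1 beside Mamdc2, completed the increases. Macroh2a1 and Smad5 beside Tgfbi, Tnfsf15 and Pappa beside Tnc, Nudt9 and Pkd2 beside Spp1, Fam98b and Gpr176 beside Thbs1, and Dact2 and Wdr27 beside Thbs2 did not pass.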

How the data were processed

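Poly(A) RNA from 6 libraries was sequenced as paired reads of 150 bases. The submitters' processing notes name build GRCm39 and the tools DESeq2 1.34.0, featureCounts 2.0.3, HISAT2 2.2.1 and Trimmomatic 0.39. The sources used here do not give the strand setting or the annotation release, so overlapping antisense reads cannot be told apart. The table deposited by the authors lists each gene's read counts and FPKM by library. The deposited FPKM equalled count over gene length and library total within a relative difference of 2.43e-07. Columns were matched by sample title, since the labels' description field names the first phillyrin column for all 3 phillyrin samples. The titles keep each column in its group.

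Counts were filtered with filterByExpr, scaled with TMM and tested over the whole table with edgeR 4.0.16 (quasi-likelihood, robust; R 4.3.3, limma 3.58.1, DESeq2 1.42.0), two-sided, Benjamini-Hochberg adjusted over 11658 genes, threshold 0.05, without covariates. A positive log2 fold change means higher with phillyrin. Its SE was derived from the test, as the size of the log2 fold change over the square root of the quasi-likelihood F statistic. The prior count for log2 CPM was 2. The biological coefficient of variation was 4.05%. The smallest two-sided p of an exact permutation test is 0.1 with 3 libraries against 3. A count of 0 allows up to 0.137 CPM in the deepest library and 0.209 CPM in the shallowest, for counting error only. The test was checked on simulated counts.

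The members and lists were chosen with earlier results of these data known. Named were the 10 genes, up to 2 called genes with the smallest p-value per related list, the 5 profiles nearest to Postn among genes averaging 1 log2 CPM or more, and the nearest tested neighbours. Alternatives were RLE factors, library size only, DESeq2, limma-voom, no low-count filter, a mean of at least 1 CPM, omission of each library, a replicate block, a 1.5-fold minimum (glmTreat), thinning to the shallowest library and TMM-scaled FPKM.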

Additional observations from a re-analysis of the deposited data

How the results depend on the processing

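In 13 of 14 alternatives without a fold minimum the same 6 of the 10 genes were called higher and the same 2 lower, and with library size only Sparc joined those called lower, making 3. The 10 genes were chosen with fold changes of this comparison known, so their calls in this section are description only. Tested against a 1.5-fold change with glmTreat, 16 genes of the table were higher and 34 lower. Of the 9 matricellular genes, Postn was then the 1 called higher and 0 were called lower. Of the related genes 1 was then higher and 1 lower. No log2 fold change of the 9 genes or the 17 related genes named by rule changed sign. Of 43 related genes called, 34 kept their call in all 14 alternatives without a fold minimum. Over the omission of each library, the related genes called numbered 21 to 25 higher and 16 to 19 lower, and over all genes tested 1434 to 1899 were higher and 1412 to 1668 lower. Summed FPKM of the 10 genes in OGD/R was 2366.9 with TMM-scaled library sizes, against 2403.3 as deposited, and 1933 against 1904 with phillyrin.

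With the replicate number as a block, 1867 genes were higher and 1842 lower, and the calls of the 9 genes did not change. Libraries with the same number deviated together with correlations of 0.0028, 0.0056 and 0.0032, so the numbers were not taken as pairs. Low counts limit Postn, Mamdc2 and Hmcn2, whose SE lay between 0.15 and 0.19, against 0.03 to 0.04 for the abundant genes.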
